A study of Rattus norvegicus with 12 samples.

Results

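Hepatic transcripts of 10 genes that handle zinc were examined: the metallothioneins Mt1a and Mt2A, the transcription factor Mtf1, the exporters Slc30a1, Slc30a5 and Slc30a10 of the SLC30 zinc transporter family, and the zinc importers Slc39a1, Slc39a5, Slc39a7 and Slc39a14. They were chosen by gene name from the 24355 gene names in the table of liver RPKM values (reads scaled to transcript length and to the mapped reads of the library). All 10 were found, in 14 transcript rows. Of the genes, 7 had 1 row and 3 had several, and for these the row with the highest mean RPKM over the 12 livers was taken as the main row. All 10 main rows had reads and were tested.

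The animals were female iP10a rats, an inbred strain bred to prefer alcohol. The 6 EtOH animals could drink from bottles of 10, 20 and 30% ethanol (v/v) beside tap water for 23 weeks, and the 6 control animals were given tap water alone. Both groups had free access to food, and food intake was not matched between them. The paper states, from unpublished data, that alcohol-preferring rats eat less chow to offset the calories of ethanol. Livers were collected at 38 weeks of age, except that of EtOH animal 6, collected at 39 weeks. Each library was made from poly(A) RNA of 1 whole-liver sample, and because drinking was voluntary, the group label does not give the dose of an animal. In such tissue, fewer cells of a type and less RNA per cell cannot be told apart.

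Metallothioneins are small cysteine-rich proteins that bind zinc and copper, and the liver makes them in large amounts when metal, glucocorticoid or inflammatory signals rise. Free zinc in the cell is sensed by MTF1, which binds metal response elements in the promoters of the metallothionein genes and of Slc30a1. Transporters of the SLC30 (ZnT) family move zinc out of the cytosol, across the plasma membrane or into organelles, and those of the SLC39 (ZIP) family move it into the cytosol.

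Promoters are shown for the genes whose transcripts the results turn on and for Slc30a1, a known target of MTF1. RefSeq promoters of the rat build GRCr8 were matched for 8 of the 10 genes, Mt1a under the symbol Mt1, and not for Slc30a10 or Slc39a14. The 250 bases before each annotated start were searched on both strands for 2 cores of the metal response element, TGCACNC and TGCGCNC. At least 1 core stood in 20.6% of 33469 promoters of this length, at least 2 in 4.9% and at least 4 in 0.266%. The sequences run 5′ to 3′ on the strand of the gene, with the cores of either strand in capitals.
Mt1a (chr19:10832976-10833225, minus strand): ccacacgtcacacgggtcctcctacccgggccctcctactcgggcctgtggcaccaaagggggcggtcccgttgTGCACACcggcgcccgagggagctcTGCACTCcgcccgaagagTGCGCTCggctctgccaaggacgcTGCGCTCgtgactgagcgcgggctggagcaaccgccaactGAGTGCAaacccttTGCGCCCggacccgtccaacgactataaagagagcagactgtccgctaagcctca
Mt2A (chr19:10838709-10838958, minus strand): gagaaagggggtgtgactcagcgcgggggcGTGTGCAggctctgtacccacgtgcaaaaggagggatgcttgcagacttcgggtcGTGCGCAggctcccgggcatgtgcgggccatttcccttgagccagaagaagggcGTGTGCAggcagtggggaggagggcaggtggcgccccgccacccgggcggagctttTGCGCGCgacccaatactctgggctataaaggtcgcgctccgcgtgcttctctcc
Slc30a1 (chr13:106021769-106022018, plus strand): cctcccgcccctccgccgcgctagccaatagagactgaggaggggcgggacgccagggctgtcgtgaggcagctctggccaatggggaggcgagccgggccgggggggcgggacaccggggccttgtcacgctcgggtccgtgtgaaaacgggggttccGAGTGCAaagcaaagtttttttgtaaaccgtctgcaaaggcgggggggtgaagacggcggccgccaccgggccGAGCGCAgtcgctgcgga
Slc39a7 (chr20:4824809-4825058, plus strand): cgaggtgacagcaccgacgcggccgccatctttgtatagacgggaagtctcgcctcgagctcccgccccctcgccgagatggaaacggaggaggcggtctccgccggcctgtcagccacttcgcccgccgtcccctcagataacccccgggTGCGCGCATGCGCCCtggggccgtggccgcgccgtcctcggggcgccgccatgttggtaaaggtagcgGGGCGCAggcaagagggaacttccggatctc

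The Mt1a promoter held 6 cores, a number reached by 0.0269% of promoters, and they were spread between 176 and 55 bases before the start. Mt2A held 4 cores, between 220 and 55 bases before the start. Slc30a1 held 2, both on the strand opposite to the gene. Slc39a7 also held 4, but 2 of them overlap on opposite strands, beginning 99 and 98 bases before the start, and another adjoins them at 91. Mtf1 held 2 cores, Slc30a5 held 2 that overlap on opposite strands, Slc39a1 held 1 and Slc39a5 none. The letters ACANNNTGT, the core of a glucocorticoid response element, stood in 5.81% of promoters and in none of the 8 searched here. A match of letters is not a measured binding site, and the shares were not adjusted for base composition.

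**Figure D1:**
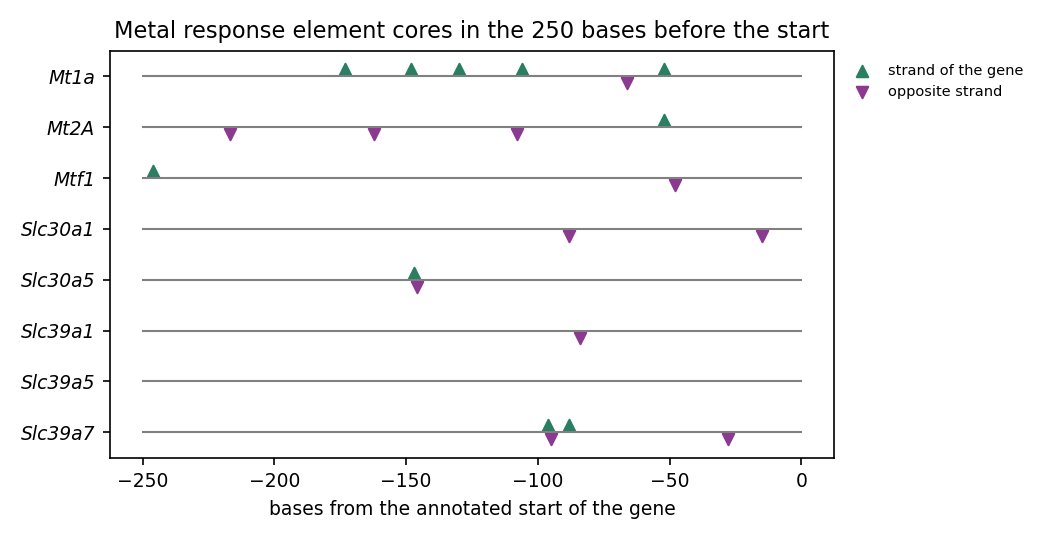
Cores of the metal response element in the 250 bases before the start of 8 genes, with the distance from the start in bases on the horizontal axis and 1 line per gene. Triangles that point up lie on the strand of the gene and those that point down on the opposite strand, and Mt1a carries the most, 6.

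The values rest on between 2610238 and 4318141 reads in control livers and between 3945593 and 6030028 in EtOH livers, recovered from the steps between RPKM values. Sequencing was paired-end, and whether a recovered read stands for a single read or for a pair was not tested. The EtOH libraries were deeper, at a mean of 4640668 ± 826861 reads against 3384322 ± 593155 (SD, 6 livers per group), a difference with p = 0.011 by an exact two-sided permutation test. Of 21718 transcripts tested in 1 limma fit, 526 (2.42%) were called at an adjusted p below 0.05, 245 (1.13%) higher and 281 (1.29%) lower in EtOH livers. The RPKM ranges of the groups did not overlap for 3.1% of transcripts, 2.43% with lower and 0.677% with higher values in EtOH livers.

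Slc39a7 was the only one of the 10 genes called, and it was lower in EtOH livers, as were 1.29% of all transcripts. Neither metallothionein was called, although both had higher mean levels in EtOH animals, 1.52 times for Mt1a and 1.75 times for Mt2A. For Slc30a5 the deposited values of the EtOH animals all lay under those of the controls, but the difference did not pass the threshold after normalization between livers. The other 6 genes, among them Mtf1, were not called. An unadjusted limma p below 0.05 was found for 5 of the 10, and for 15.5% of all transcripts. Among the 11086 transcripts with a mean of at least 1 RPKM, which all 10 reached, 2693 had such a p. Of these 11086, 235 were called higher and 260 lower. Over the 10 genes the median log2 difference was 0.10, beside 0.00 over all transcripts tested, and it was -0.05 without normalization between livers.

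The genes differed widely in level per length. Mt1a was the most abundant at a mean of 290 RPKM over the 12 livers, higher than 99.03% of the transcripts tested. Mt2A followed at 69.0 RPKM, and in each liver it was the lower of the pair. Slc39a14 at 50.5 RPKM lay within the range of Mt2A across livers. Slc39a7 and Slc39a1 were next at 33.98 and 33.31 RPKM, with overlapping ranges. Slc30a5, Slc30a10 and Slc30a1, at 16.9, 16.8 and 16.3 RPKM, did not separate beyond their spread. Mtf1 at 2.93 and Slc39a5 at 1.80 RPKM were the least abundant and also overlapped.

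Mt1a and Mt2A encode the 2 metallothioneins detected in these livers. In the coordinates of the deposited table, for which the sources used here give no build, both lie on chromosome 19, at 11261631 to 11262647 and 11267812 to 11268585. Mt1a ran from 127.5 to 317.5 RPKM in control livers, with a median of 220.9, and from 163.9 to 558.2 in EtOH livers, with a median of 300.9. EtOH animals 4 and 6, at 518.3 and 558.2 RPKM, were above every control, whereas EtOH animal 1, at 163.9, was below all controls but animal 4. The means were 230.0 ± 73.5 and 349.7 ± 155.1 RPKM (SD, n = 6 each). The log2 difference was 0.65 with a standard error of 0.28 and a 95% interval of 0.03 to 1.26, and limma gave an adjusted p of 0.29. The groups overlapped, and the other 4 EtOH livers lay within the control range.

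Mt2A had a like spread of animals at a lower level. It ran from 22.02 to 82.89 RPKM in controls, with a median of 44.7, and from 34.4 to 152.7 in EtOH livers, with a median of 68.8. EtOH animals 4 and 6 were again highest, at 136.6 and 152.7 RPKM, and control animal 4 was lowest. The log2 difference was 0.90 with a standard error of 0.36 and a 95% interval of 0.11 to 1.68 (limma, adjusted p = 0.25). The lower ends of these intervals are folds of 1.022 for Mt1a and 1.081 for Mt2A, and the upper ends 2.39 and 3.20.

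**Figure D2:**
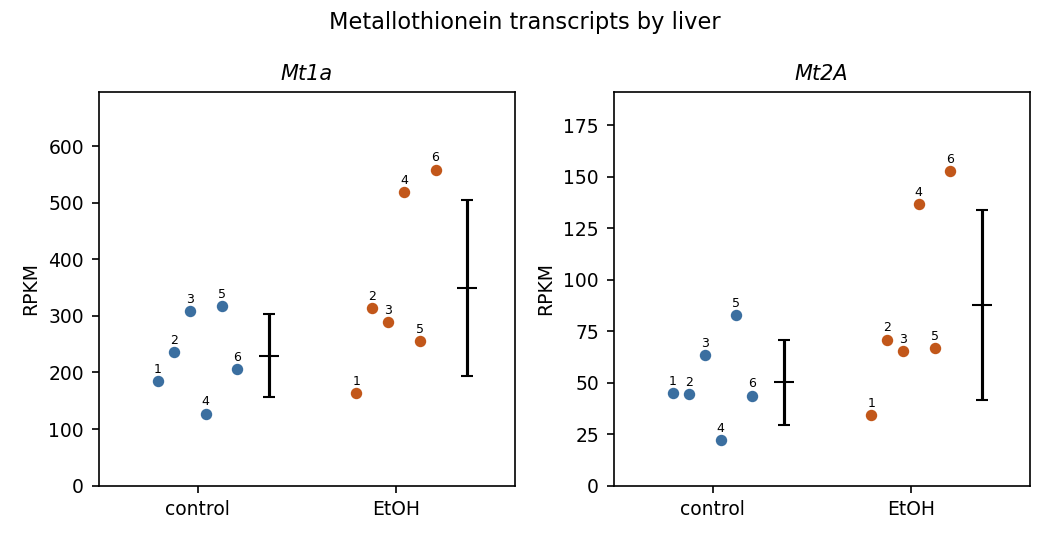
RPKM of Mt1a and Mt2A in each liver of 6 control and 6 EtOH animals, with the number of the animal at each point and the group mean and SD at its right. EtOH animals 4 and 6 lie above every control for both transcripts, and the other 4 EtOH livers lie within the control range.

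Both transcripts varied more among animals of a group than most. The SD within groups was 0.54 for Mt1a and 0.69 for Mt2A on the log2 scale, larger than that of 83.4% and 88.3% of the 11086 transcripts with a mean of at least 1 RPKM, whose median was 0.26. The deviations of the 2 transcripts from their group means moved together across the 12 livers, with a Pearson r of 0.979 (permutation p = 8.0e-05, adjusted 7.2e-04 over 9 relations) and a Spearman rho of 0.890 (permutation p = 7.4e-04, adjusted 0.0067). Without the 2 livers farthest from the median of Mt1a r was 0.953, and it was 0.962 within controls and 0.991 within EtOH animals. The transcripts come from neighboring paralogs, and whether reads were shared between them by the counting was not tested.

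**Figure D3:**
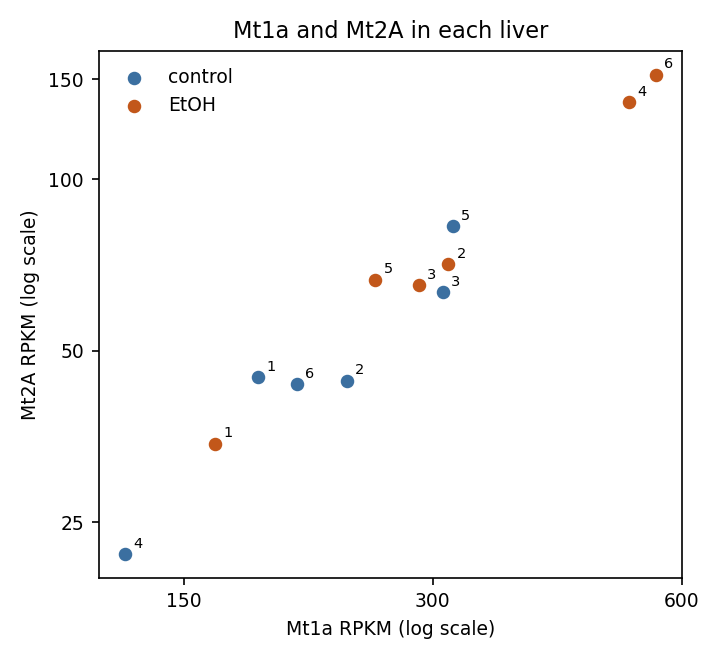
Mt2A RPKM against Mt1a RPKM, both on log axes, with 1 point per liver labeled by the number of the animal and colored by group. The points follow 1 line from control animal 4 at the lower left to EtOH animals 4 and 6 at the upper right.

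Mt1a exceeded Mt2A by 3.66 to 5.79 times per liver in RPKM. The log2 ratio of Mt2A to Mt1a was -2.24 ± 0.22 in control and -2.05 ± 0.15 in EtOH livers (SD, n = 6 each). The difference was 0.19, and an exact two-sided permutation test did not separate the groups (p = 0.12, smallest possible p = 0.0022). This ratio does not depend on scaling between livers.

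For the other 8 genes, no correlation with Mt1a passed the threshold. Their Pearson r lay between -0.365 for Slc30a1 and 0.334 for Slc39a7, with adjusted permutation p of 0.76 or more, and their Spearman rho between -0.371 and 0.448, with adjusted permutation p of 0.58 or more. Within groups of 6, untested, r reached 0.783 in EtOH livers for Slc39a14, which was at -0.337 in controls, 0.623 in EtOH livers for Mtf1, and 0.646 and 0.607 in controls for Slc39a5 and Slc39a7. Of 11085 transcripts with a mean of at least 1 RPKM, those most like Mt1a after Mt2A were Mccc1, Egln2, LOC687192 and Epb41l1, with r from 0.911 to 0.858 over 12 livers. Those most like Mt2A after Mt1a were Mccc1, LOC687192, Tbc1d10a and LOC304000, with r from 0.939 to 0.864. These are descriptions of the highest values among many.

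Mtf1, whose protein is the zinc sensor that acts on metallothionein promoters, ran from 2.11 to 3.96 RPKM in controls and from 2.37 to 3.17 in EtOH livers. Every EtOH value lay within the control range. The log2 difference was -0.04 with a 95% interval of -0.33 to 0.24 (limma, adjusted p = 0.90), and its sign turned under median ratio scaling. Each liver gave only 51 to 93 Mtf1 reads.

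Among the exporters, Slc30a5, which loads zinc into the secretory pathway, had lower RPKM in EtOH livers. Its main row lay on chromosome 2 at 31607557 to 31637655 in the deposited coordinates. It ran from 16.4 to 21.0 RPKM in controls, with a median of 19.2, and from 12.8 to 16.0 in EtOH livers, with a median of 14.9. The groups did not overlap, as was so for 2.43% of all transcripts in this direction. After quantile normalization the groups overlapped, and the log2 difference was -0.20 with a standard error of 0.07 (limma, adjusted p = 0.18). Without normalization between livers it was -0.35 with an adjusted p of 0.026, in a fit that called 2.98% of transcripts lower and 0.58% higher.

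Slc30a1, the exporter of the plasma membrane, ran from 14.0 to 18.0 RPKM in controls and from 14.4 to 18.9 in EtOH livers. The ranges overlapped almost entirely, and the log2 difference was 0.12 with a 95% interval of -0.06 to 0.31 (limma, adjusted p = 0.53). Slc30a10, a family member that exports manganese, ran from 10.2 to 21.1 RPKM in controls and from 13.8 to 19.5 in EtOH livers. Control animal 3 was the lowest of all livers for Slc30a10, and the log2 difference was 0.09 with a 95% interval of -0.26 to 0.43 (limma, adjusted p = 0.82). The signs of Slc30a1 and Slc30a10 turned when livers were not normalized to each other.

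**Figure D4:**
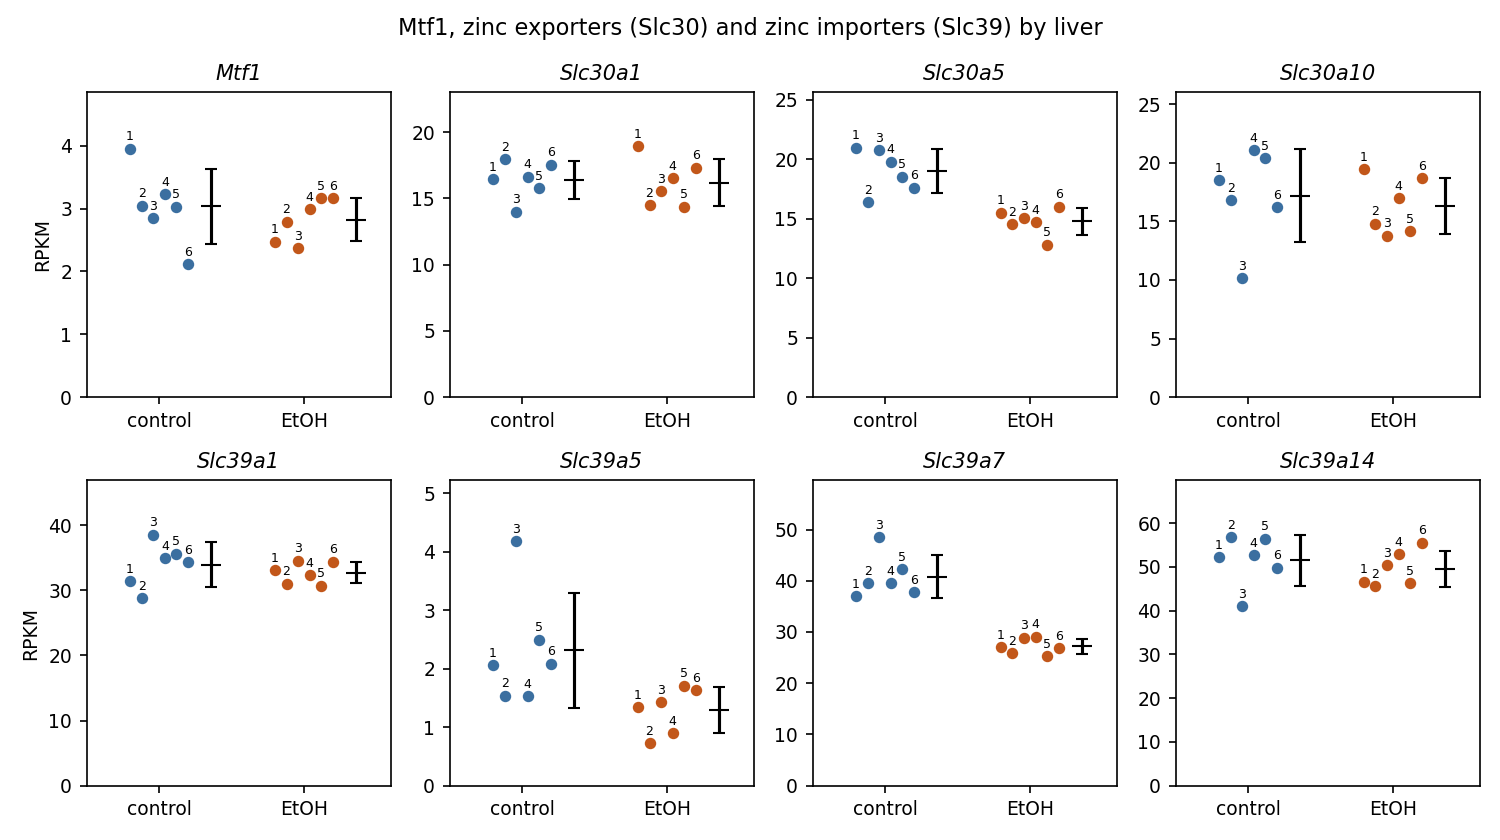
RPKM of Mtf1, 3 exporters and 4 importers in each of 6 control and 6 EtOH livers, with the number of the animal at each point and the group mean and SD at its right. The groups do not overlap for Slc39a7 and Slc30a5, and they overlap for the other 6 genes.

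Slc39a7 encodes ZIP7, an importer that releases zinc from the endoplasmic reticulum and Golgi into the cytosol. The gene lies on chromosome 20 at 4961318 to 4964651 in the deposited coordinates. Control livers held 36.95, 39.55, 48.48, 39.56, 42.31 and 37.8 RPKM in animals 1 to 6, and EtOH livers 27.09, 25.8, 28.86, 29.1, 25.33 and 26.89. The highest EtOH value lay under the lowest control value, before and after quantile normalization. The means were 40.8 ± 4.20 and 27.2 ± 1.54 RPKM (SD, n = 6 each), a ratio of EtOH to control of 0.667. On the normalized log2 scale the difference was -0.41 with a standard error of 0.05 and a 95% interval of -0.52 to -0.31 (limma, adjusted p = 0.0019).

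Slc39a7 also varied little among animals, with an SD within groups of 0.08 on the log2 scale that was larger than that of only 1.30% of the transcripts with a mean of at least 1 RPKM. The main row was read by 242 to 435 reads per liver. A second row of the gene was low, with 0 to 33 reads per liver, overlapping groups and an adjusted p of 0.75. With both rows summed the difference was -0.39 and the adjusted p 0.0016.

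Slc39a1, an importer of the plasma membrane, stood near the level of Slc39a7 and was not called. It ran from 28.8 to 38.6 RPKM in controls and from 30.7 to 34.5 in EtOH livers, and the log2 difference was 0.11 with a 95% interval of -0.02 to 0.24 (limma, adjusted p = 0.43). Slc39a7 was above Slc39a1 in 6 of 6 control livers, by 1.10 to 1.37 times, and in 0 of 6 EtOH livers, where the ratio was 0.782 to 0.899. This pair was chosen after its values were seen and was not tested.

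Slc39a14, which takes up zinc, iron and manganese and responds to inflammation, was the most abundant transporter. It ran from 41.0 to 56.8 RPKM in controls and from 45.6 to 55.6 in EtOH livers, and the log2 difference was 0.12 with a 95% interval of -0.08 to 0.32 (limma, adjusted p = 0.61). Its second row, at 21 to 150 reads per liver, had an adjusted p of 0.84, and its remaining row was at 0 in every liver. Slc39a14 and Slc30a10 had the most alike deviations among the transporters, with an r of 0.83 over 12 livers, given as a description. Control animal 3 had the lowest RPKM of all livers for both, at 41.01 and 10.15, and r without it was not computed. The signs of Slc39a1 and Slc39a14 turned when livers were not normalized to each other.

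Slc39a5, an importer known from pancreas, gut and liver, was scarce. It ran from 1.53 to 4.17 RPKM in controls, with a median of 2.07, and from 0.723 to 1.71 in EtOH livers, with a median of 1.38. Of the EtOH livers, 4 of 6 were below every control, and the high control value came from animal 3. The log2 difference was -0.62 with a standard error of 0.23 and a 95% interval of -1.13 to -0.10 (limma, adjusted p = 0.22). Each liver gave only 9 to 40 reads of Slc39a5.

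**Figure D5:**
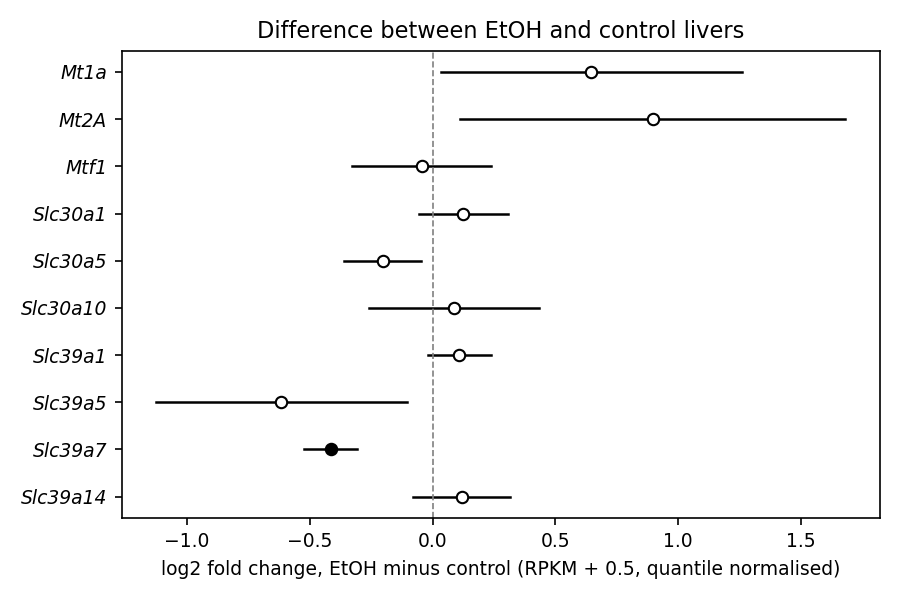
Log2 difference between 6 EtOH and 6 control livers for the 10 genes, as points with 95% intervals from limma on quantile-normalized log2 values of RPKM plus 0.5. The filled point is Slc39a7, with an adjusted p of 0.0019, and open points did not pass 0.05, also where their interval for the single gene lies off 0.

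No other gene of the transporter families was called. Of the other Slc30 genes 6 had reads and 0 were called, and of the other Slc39 genes 7 had reads and 0 were called, in this fit and in each alternative. None of these 13 had an unadjusted limma p below 0.05, as 15.5% of all transcripts did. Their log2 differences lay between -0.27 and 0.29, with a median of -0.01. Those at a mean of 5 RPKM or more were Slc30a7, Slc30a9, Slc39a3, Slc39a4, Slc39a8 and Slc39a9, with adjusted p between 0.50 and 1. Slc39a8, a close relative of Slc39a14 that carries zinc and manganese, was the highest of them, at 19.3 ± 2.75 RPKM in controls and 17.4 ± 2.29 in EtOH livers. The metallothioneins Mt3 and Mt4 were listed at 0 in every liver.

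Genes that share signals or metal with the members were counted in the same fit, in which 1.13% of all transcripts were called higher and 1.29% lower. Of 22 genes of zinc enzymes 2 were called higher, Car14 and Anpep, and 2 lower, Alad and Sord. Alad, a zinc enzyme of heme synthesis, was at 111.2 ± 16.6 RPKM in controls and 75.1 ± 7.93 in EtOH livers, a log2 difference of -0.41 (limma, adjusted p = 0.017). Of 11 genes of copper handling only Steap4 was called, higher, with an adjusted p of 0.039 that was lost in 15 of 24 alternatives. Of 15 glucocorticoid targets 3 were called higher, Klf9, Pck1 and Igfbp1. Of 18 genes of the acute phase or of interleukin 6 signaling (the acute phase list), Crp was called higher and Hamp lower. The count of this list was lower in 16 of 24 alternatives. As a description over 12 livers, the deviations of the tested genes were compared with those of Mt1a. The r lay between -0.54 and 0.50 for the glucocorticoid targets and between -0.85 and 0.38 for the acute phase list.

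Markers of cell types were counted in the same way, beside 1.13% of all transcripts called higher, and the summed levels of the groups overlapped for each type. The log2 difference was above 0 for 8 of 8 Kupffer, 8 of 9 stellate, 5 of 5 endothelial and 2 of 4 cholangiocyte markers. Their medians were 0.44, 0.34, 0.37 and 0.025, beside 0.005 for hepatocyte markers and 0.008 over transcripts with a mean of at least 1 RPKM. A difference above 0 was found in 5678 of these 11086 transcripts. The hepatocyte markers identified the tissue, with summed levels of 88560 to 116600 RPKM in controls and 98190 to 124000 in EtOH livers, and 1 of 9, Cps1, was called higher. Among the 9, Alb and Tf took the same value in every liver after quantile normalization, so that fit could not call them. Both still count in the hepatocyte median of 0.005, with a difference fixed by that step. The other hepatocyte markers ran from -0.29 for Apoa2 to 0.58 for Cps1 in log2 difference. A hepatocyte median without Alb and Tf was not computed, so 0.005 is a limited baseline for the other cell types. Of 8 Kupffer cell markers 3 were called higher, Clec4f, Cd163 and Vsig4, with sums of 168.5 to 258.2 RPKM in controls and 223.1 to 275.9 in EtOH livers. Of 9 stellate cell markers 2 were called higher, Col1a2 and Col3a1, with sums of 27.4 to 38.3 and 34.5 to 55.5 RPKM, and neither was called in 9 of 24 alternatives. Of 5 endothelial markers 1 was called higher, Cdh5, with sums of 28.0 to 36.2 and 33.5 to 46.5 RPKM and a call lost in 15 of 24 alternatives. Of the cholangiocyte markers 0 of 4 were called in either direction, with sums of 4.37 to 8.27 and 3.90 to 7.87 RPKM. The part of these marker levels, and of the greater depth of the EtOH libraries, in the values of Slc39a7, Slc30a5 and the metallothioneins was not tested.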

How the data were processed

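The authors sequenced poly(A) libraries of 12 livers, barcoded and pooled in 1 lane, mapped paired-end reads with CLCbio Genomics Workbench and deposited RPKM values per transcript and liver; genome build and annotation are not given in the sources used here. The table's columns of the authors' own comparison (fold change, test statistic, p and FDR) were not used. Groups follow the sample titles. Whole reads were recovered from the RPKM steps for 100% of 21718 transcripts above 0 (tolerance 0.01 reads), and 12673 rows at 0 were left out. The smallest whole numbers that match were taken, so a transcript above 0 in 1 liver always passes, as 1 read. A whole transcript length followed for 21176 transcripts. The recovered reads made up 88.11 to 91.54% of the total behind the RPKM values of a liver. EtOH and control livers were compared with limma 3.58.1 (R 4.3.3), fitted to log2(RPKM + 0.5) after quantile normalization, with the trend of variance on mean, so that fold changes of low transcripts are understated. P-values were adjusted by Benjamini-Hochberg over all 21718, with a threshold of 0.05. The study's own test on square-root values was an alternative. Single values were compared by exact permutation over 924 regroupings, and correlations by 100000 permutations within groups, in Python 3.11.15 (scipy 1.17.1; numpy 2.4.6; pandas 2.3.3). The limma step was also run on simulated reads. These had the same variation between animals set for every transcript, unlike the data here, so that run does not bear on single calls.

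Named were all members and their rows, called transcripts of each list, other family genes with a mean of at least 5 RPKM, and the 5 transcripts most like Mt1a and Mt2A. The members and lists were chosen with earlier results of these data known. Animal numbers recur in both groups, and the labels do not say that they mark a shared litter, batch or day.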

Additional observations from a re-analysis of the deposited data

Results flagged for a closer look

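Of 24 sets of 6 livers examined for an animal far from the rest of its group (10 transcripts, the metallothionein ratio and the read total, in each group), 1 held such an animal, and chance gives about 1 in 20. It was control animal 3 for Slc39a5, at 4.17 RPKM, with a gap to the next control of 0.64 of the group's range, past the 95% limit of Dixon's test. Without this liver the log2 difference of Slc39a5 was -0.45.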

How the results depend on the processing

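Over 24 alternatives for each of the 10 genes, 230 of 240 values kept their direction and side of the threshold. The call of Slc39a7 held in all 24, with adjusted p between 0.001 and 0.031, and no alternative called Mt1a or Mt2A, at adjusted p of 0.12 or more. Without normalization between livers the members called rose to 2 with Slc30a5, and the signs turned for Slc30a1 (-0.019), Slc30a10 (-0.050), Slc39a1 (-0.049) and Slc39a14 (-0.052). That setting shifted the median of transcripts with a mean of at least 1 RPKM by -0.08, against 0.01 after quantile normalization. Mtf1 turned to 0.002 with median ratio scaling, 0.024 with voom on recovered reads, 0.015 without control animal 1 and 0.003 without EtOH animal 1, in a range from -0.115 to 0.015 with 1 liver left out. Slc30a10 turned to -0.059 without control animal 3, in a range up to 0.153. Called transcripts numbered 322 with the unmoderated test on square-root values, 860 at a mean of at least 1 RPKM, where fewer were tested, and 212 to 656 with 1 liver left out, against 526. The lowest counts came without EtOH animals 2 (212), 3 (252), 4 (295) and 5 (298) and control animals 2 (275) and 4 (285). The difference in the log2 ratio of Mt2A to Mt1a ran from 0.136 to 0.255 with 1 liver left out, and passed 0.05 only without control animal 5 (exact permutation p = 0.037). Over the alternatives 1 to 5 Kupffer, 0 to 3 stellate, 0 to 2 endothelial and 0 to 3 hepatocyte markers were called. The calls were 1 to 5 for zinc enzymes, 2 to 4 for glucocorticoid targets and 0 to 3 for the acute phase list. Summing the rows of a gene was chosen after seeing the data. The cause of these changes was not tested.

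Samples with the same animal number did not deviate together: correlations ran from -0.067 to 0.032, and 1 of 6 controls correlated best with its own number. With the number as a block 113 transcripts were called, Slc39a7 among them with an adjusted p of 0.031, and the exact paired test of the difference of 1256345 reads per liver gave p = 0.062 against 0.011.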
